A study of Mus musculus with 5 samples.

Results

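The retinol and aldehyde dehydrogenases described here are 10 enzymes of alcohol and aldehyde oxidation: Adh1, Adh7, Aldh1a1, Aldh1a2, Aldh1a7, Aldh1b1, Aldh2, Aldh3a1, Aldh3a2 and Aldh3b1. They were found as the probes that the platform annotation assigns to these symbols, 1 probe for each, which makes 10 of the 19084 genes and 10 of the 26423 probes of the array. The genes were picked with their measured values in view, Adh1 and Adh7 for their differences between iLC and MEF and the others for their levels in all 3 groups, so their own values are given as a description without a test.

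Transcripts were measured on 5 mouse single-colour arrays, 1 sample to an array. The iLC group (2 arrays) held fibroblasts of embryos at 13.5 days post coitus that were exposed for 12 hours to lentivirus that delivered 3 gonadal transcription factors, Dmrt1, Gata4 and Nr5a1, and then kept in a medium supplemented with the growth factors IGF (50 ng/ml) and PDGFAA (10 ng/ml). The submitters call them induced Leydig-like cells. The Leydig group (2 arrays) held Leydig cells, which make the androgens of the testis, isolated from mice aged 56 days. The MEF group (1 array) held fibroblasts of embryos of the same stage that received a mock vector. The labels do not state the strain, the medium of the mock-transduced cells after infection, the time in culture, the number of animals behind a sample or the purity of the Leydig preparations. Nothing in the labels says that the arrays of a pair came from separate cultures or animals, so every error below measures only the spread between these arrays, which may be technical. The single MEF array has no spread of its own, and the iLC population was not sorted for transduced cells as far as the labels say.

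Oxidation of retinol to retinoic acid takes place in sequence: an alcohol or short-chain dehydrogenase makes retinal, and a cytosolic aldehyde dehydrogenase of the ALDH1A class makes retinoic acid, the ligand of the RAR receptors. Retinoic acid starts meiosis in germ cells and is needed throughout spermatogenesis, and in the mouse testis ALDH1A1 is known from somatic cells and ALDH1A2 from germ cells. Mitochondrial ALDH2 and ALDH1B1 clear acetaldehyde and related small aldehydes, while the ALDH3 enzymes act on aromatic aldehydes and on the medium- and long-chain aldehydes of lipid turnover.

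The arrays differed in ways that touch the values below. Median intensities were 1157 and 1215 on the iLC arrays, 1111 and 1230 on the Leydig arrays and 1144 on the MEF array. The second Leydig array stood apart from the first in germ cell transcripts: the summed intensity of 8 germ cell markers was 10480 and 9671 on the iLC arrays, 25969 and 379829 on the Leydig arrays and 8455 on the MEF array, and all 8 read above MEF on both Leydig arrays. Both Leydig arrays lay above both iLC arrays for 5 of the 8. The exceptions were Ddx4, Acrv1 and Sycp3. Ddx4 had 3672 and 3609 on the Leydig arrays, 4360 and 3710 on the iLC arrays and 2668 on the MEF array. Of 6 measured Leydig markers, Cyp17a1, Hsd3b1, Nr5a1 and Star, or 4 in all, read above MEF on both Leydig arrays. Cyp11a1, which encodes the enzyme that opens steroid synthesis, read low on every array. It had 603 and 907 on the iLC arrays, 510 and 451 on the Leydig arrays and 562 on the MEF array. Whether its probe reads the transcript well was not examined, so these values do not show that the transcript was absent. The remaining marker, Hsd17b3, read 1124 and 3680 on the Leydig arrays and 2165 on the MEF array. Insl3 and Lhcgr, markers of adult Leydig cells, have no probe under their symbols here. None of the 3 delivered factors had a probe above MEF on both iLC arrays: Nr5a1 had 1509 and 1158 on the iLC arrays and 1265 on the MEF array, and the log2 differences of Dmrt1 and Gata4 between iLC and MEF were -0.07 ± 0.38 and -0.91 ± 0.43 (SE). Where these probes lie relative to the delivered sequences was not examined, so they do not check the iLC labels.

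Adh1 and Adh7, the alcohol dehydrogenases of the group, were the members that stood furthest above MEF on the iLC arrays. Both oxidise retinol and other alcohols, Adh1 being known best from liver and Adh7 from stomach, and their genes are direct neighbours on mouse chromosome 3 with 0 protein-coding genes between them. Adh1 read 187002 and 129174 on the iLC arrays, 379195 and 180778 on the Leydig arrays and 2128 on the MEF array. All 4 iLC and Leydig values lay far above the MEF value, and the iLC and Leydig ranges overlapped. On the log2(intensity + 16) scale used for every difference here, Adh1 differed by 6.18 ± 0.55 (SE) between iLC and MEF, by -0.75 ± 0.45 between iLC and Leydig cells and by 6.93 ± 0.55 between Leydig cells and MEF. Each difference between groups is the group named first minus the group named second. A gene said to rise or fall was higher or lower in the group named first. In bulk RNA, fewer cells of a type and less RNA per cell cannot be told apart, and this applies to each level given here.

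Adh7 read 161970 and 59148 on the iLC arrays, 1525 and 2678 on the Leydig arrays and 1361 on the MEF array. It was high on the iLC arrays, and its Leydig values lay just above the MEF value. The differences were 6.15 ± 0.68 between iLC and MEF, 5.59 ± 0.56 between iLC and Leydig cells and 0.56 ± 0.68 between Leydig cells and MEF. Its iLC arrays differed 2.74 times from each other, the widest iLC pair of the 10 members, and the difference between iLC and MEF was 5.43 without the first iLC array and 6.88 without the second; that between iLC and Leydig cells was 4.86 and 6.31. Set against their own MEF levels, both neighbouring genes were high in iLC, and in Leydig cells Adh1 was high while Adh7 was near its MEF level.

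The sequences upstream of the pair are shown because the genes lie side by side and differ in Leydig cells. They are the 250 bases before each start in RefSeq on build GRCm38.p6, on the strand of the gene, chr3:138277335-138277584 for Adh1 and chr3:138217523-138217772 for Adh7, both on the plus strand. Capitals mark matches to 6 short motifs searched on both strands.
Adh1: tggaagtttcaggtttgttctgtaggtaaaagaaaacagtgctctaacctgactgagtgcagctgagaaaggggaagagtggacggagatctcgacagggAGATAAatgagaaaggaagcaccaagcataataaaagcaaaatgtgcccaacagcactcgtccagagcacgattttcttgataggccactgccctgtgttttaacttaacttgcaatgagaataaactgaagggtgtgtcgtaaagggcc
Adh7: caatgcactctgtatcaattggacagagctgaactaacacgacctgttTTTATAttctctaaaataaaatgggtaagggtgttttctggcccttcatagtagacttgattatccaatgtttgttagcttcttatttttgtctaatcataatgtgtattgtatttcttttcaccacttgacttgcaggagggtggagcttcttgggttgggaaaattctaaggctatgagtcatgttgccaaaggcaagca
The capitals in Adh1 are AGATAA, letters bound by factors such as Gata4, beginning 150 bases before the start and present in 10.0% of 32851 upstream windows of the same length. Those in Adh7 are TTTATA, which is TATAAA on the other strand, 202 bases before the start, and TATAAA is found in 12.4% of windows. The other motifs searched were CAAGGTCA, the letters of an NR5A1 site (1.3% of windows), AGGTCA, the nuclear receptor core that lies within it (14.0%), TGACNNNGC, the core of an NRF2 site (10.2%), and GCGTG, the core bound by the aryl hydrocarbon receptor (28.2%). A match describes letters in the window and is not a measured binding site.

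**Figure D1:**
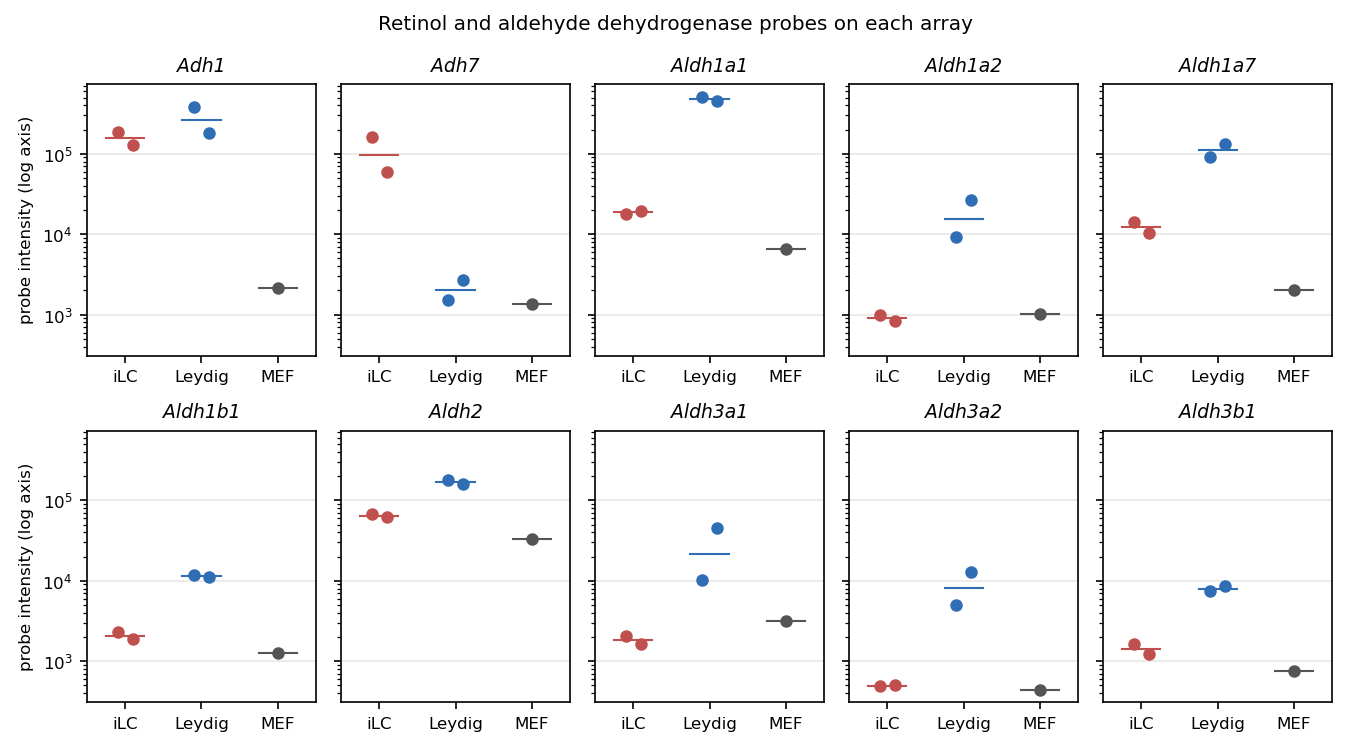
Probe intensity (log axis, arbitrary linear units as deposited) of the 10 members on each iLC, Leydig and MEF array. Points are single arrays and bars are geometric means; Adh1 is high in iLC and Leydig cells, Adh7 in iLC, and the 8 aldehyde dehydrogenases in Leydig cells.

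Aldh1a1, Aldh1a2 and Aldh1a7 belong to the class that oxidises retinal. Aldh1a1 encodes the broadly expressed retinal dehydrogenase, Aldh1a2 the one that supplies most retinoic acid in the embryo, and Aldh1a7 is a rodent duplicate of Aldh1a1 whose protein has little activity on retinal. Aldh1a1 read 18088 and 19248 on the iLC arrays, 510912 and 454706 on the Leydig arrays and 6603 on the MEF array. The 3 groups did not overlap, with iLC between the others and the arrays of each pair close together. Aldh1a1 differed by 1.50 ± 0.37 between iLC and MEF, by -4.69 ± 0.30 between iLC and Leydig cells and by 6.19 ± 0.37 between Leydig cells and MEF.

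Aldh1a7 followed the same order of groups. It read 14366 and 10269 on the iLC arrays, 91051 and 133606 on the Leydig arrays and 2031 on the MEF array. Its differences were 2.57 ± 0.44 between iLC and MEF, -3.18 ± 0.36 between iLC and Leydig cells and 5.75 ± 0.44 between Leydig cells and MEF, so the iLC values lay between the MEF and the Leydig values for both genes of the pair. Aldh1a1 and Aldh1a7 are near-identical neighbours on chromosome 19, with 0 protein-coding genes between them, and the sequences of their probes were not used here. Whether each probe reads its own transcript alone was therefore not tested.

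The upstream windows of Aldh1a1 and Aldh1a7 are shown because they carry the duplication. They are RefSeq sequences on build GRCm38.p6 at chr19:20601718-20601967 for Aldh1a1, on the plus strand, and chr19:20727557-20727806 for Aldh1a7, on the minus strand, both printed along the gene. Capitals mark AGATAA in Aldh1a1 and TATAAA in Aldh1a7.
Aldh1a1: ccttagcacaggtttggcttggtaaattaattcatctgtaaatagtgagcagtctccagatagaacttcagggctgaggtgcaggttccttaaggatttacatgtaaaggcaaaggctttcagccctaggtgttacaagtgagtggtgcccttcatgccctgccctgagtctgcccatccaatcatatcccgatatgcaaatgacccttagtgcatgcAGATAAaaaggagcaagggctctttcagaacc
Aldh1a7: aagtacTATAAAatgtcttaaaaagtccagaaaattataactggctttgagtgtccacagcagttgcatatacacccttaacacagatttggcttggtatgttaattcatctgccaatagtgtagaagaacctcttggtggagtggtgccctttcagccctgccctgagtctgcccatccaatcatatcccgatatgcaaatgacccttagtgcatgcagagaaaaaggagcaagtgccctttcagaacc
A global alignment of the pair, in which gaps at the ends cost nothing, paired 175 bases with 160 identical, or 91.4%. The other 35 pairs of member windows aligned over at most 88 bases. The AGATAA of Aldh1a1, 32 bases before the start, stood opposite AGAGAA in Aldh1a7, and the TATAAA of Aldh1a7, 244 bases before the start, lay outside the aligned stretch. RefSeq gives Aldh1a1 a second start further upstream, whose window held 0 of the 6 motifs.

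Aldh1a2, unlike both relatives, did not read above MEF on the iLC arrays. It read 999 and 840.0 on the iLC arrays, 9128 and 26386 on the Leydig arrays and 1009 on the MEF array. The iLC and MEF values lay together, with a difference of -0.14 ± 0.65, and every Leydig value lay above them. The differences were -4.06 ± 0.53 between iLC and Leydig cells and 3.92 ± 0.65 between Leydig cells and MEF. The 2 Leydig arrays differed 2.89 times, so the differences depended on which Leydig array was kept: -4.82 and 4.69 without the first Leydig array (iLC minus Leydig and Leydig minus MEF), and -3.29 and 3.16 without the second.

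Aldh2 and Aldh1b1 encode mitochondrial enzymes of small aldehydes. Aldh2 read 67385 and 61619 on the iLC arrays, 180624 and 161251 on the Leydig arrays and 32800 on the MEF array. The groups did not overlap and were ordered as for Aldh1a1, over a narrower range. Aldh2 differed by 0.97 ± 0.37 between iLC and MEF, by -1.40 ± 0.30 between iLC and Leydig cells and by 2.38 ± 0.37 between Leydig cells and MEF. It had the smallest difference between iLC and Leydig cells of the members after Adh1.

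Aldh1b1 read 2294 and 1875 on the iLC arrays, 11719 and 11119 on the Leydig arrays and 1272 on the MEF array. Its Leydig arrays were the closest pair of the 10 members, differing 1.05 times. The differences were 0.70 ± 0.38 between iLC and MEF, -2.45 ± 0.31 between iLC and Leydig cells and 3.15 ± 0.38 between Leydig cells and MEF. In iLC the gene therefore sat nearer to its MEF level than to its Leydig level.

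Aldh3a1, Aldh3a2 and Aldh3b1 make up the class of aromatic and fatty aldehydes. Aldh3a1 encodes the enzyme known from cornea and stomach, Aldh3a2 the microsomal fatty aldehyde dehydrogenase whose loss causes Sjögren-Larsson syndrome in humans, and Aldh3b1 an enzyme of membrane-bound lipid aldehydes. Aldh3a2 read 495 and 499 on the iLC arrays, 5039 and 12854 on the Leydig arrays and 437 on the MEF array. It was low on the iLC and MEF arrays and higher on both Leydig arrays. Its differences were 0.18 ± 0.59 between iLC and MEF, -3.97 ± 0.49 between iLC and Leydig cells and 4.15 ± 0.59 between Leydig cells and MEF, and without the second Leydig array those involving Leydig cells were -3.30 and 3.48, and without the first -4.65 and 4.83.

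Aldh3a1 read 2047 and 1616 on the iLC arrays, 10320 and 44636 on the Leydig arrays and 3127 on the MEF array. Both of its iLC arrays lay below MEF, as those of Aldh1a2 did, and its Leydig arrays differed 4.33 times, more than those of any other member. The differences were -0.78 ± 0.83 between iLC and MEF, -3.55 ± 0.68 between iLC and Leydig cells and 2.77 ± 0.83 between Leydig cells and MEF. Without the second Leydig array they were -2.49 between iLC and Leydig cells and 1.72 between Leydig cells and MEF, and without the first they were -4.61 and 3.83. Aldh3a1 and Aldh3a2 are direct neighbours on chromosome 11, with 0 protein-coding genes between them.

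Aldh3b1 read 1647 and 1213 on the iLC arrays, 7468 and 8586 on the Leydig arrays and 754 on the MEF array. The 3 groups did not overlap, and iLC lay between the others. The differences were 0.89 ± 0.40 between iLC and MEF, -2.49 ± 0.33 between iLC and Leydig cells and 3.38 ± 0.40 between Leydig cells and MEF. Its upstream window, chr19:3929779-3930028 on the minus strand of GRCm38.p6 and printed along the gene, is shown because it was the one member window with the letters of an NR5A1 site, the site of 1 of the 3 delivered factors.
Aldh3b1: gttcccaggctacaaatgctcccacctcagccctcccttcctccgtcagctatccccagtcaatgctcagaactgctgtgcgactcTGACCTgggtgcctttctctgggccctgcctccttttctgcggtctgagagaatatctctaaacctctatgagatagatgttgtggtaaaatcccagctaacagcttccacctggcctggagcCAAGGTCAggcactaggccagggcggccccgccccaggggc
Capitals mark CAAGGTCA, 41 bases before the start, with AGGTCA inside it, and TGACCT, the same core on the other strand, 164 bases before the start. RefSeq windows were matched for 8 of the 10 members, with 9 starts in all. TGACNNNGC was found for Aldh1a2 and GCGTG for Aldh1a2 and Aldh3a2.

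**Figure D2:**
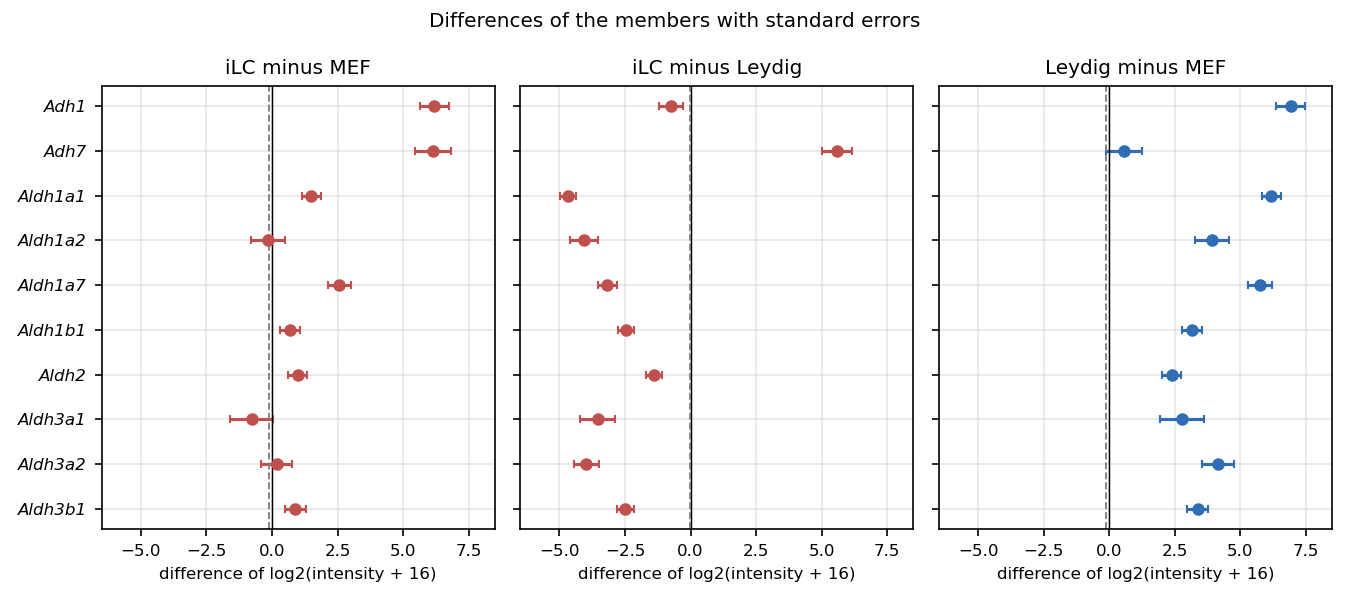
Difference of log2(intensity + 16) of each member for iLC minus MEF, iLC minus Leydig and Leydig minus MEF, with SE bars from the limma fit. The dashed line is the median of all 19084 genes; Adh1 and Adh7 lie furthest right for iLC minus MEF, and all members except Adh7 lie left of the line for iLC minus Leydig.

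Counted over the family, 8 of 10 members read above MEF on both iLC arrays, the exceptions being Aldh1a2 and Aldh3a1, where 34% of all genes did. All 10 read above MEF on both Leydig arrays, where 33% of all genes did. Both iLC arrays lay below both Leydig arrays for 8 members, where 29.1% of all genes did; Adh1 overlapped and Adh7 went the other way. Because these values chose the members, nothing is read from the distance to the share of all genes.

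The same holds for the calls of the fit over all genes, where a gene is called at a limma adjusted p (Benjamini-Hochberg over 19084 genes) under 0.05. Between iLC and MEF, 2 members were called higher, Adh1 and Adh7, and 0 lower, beside 0.283% of all genes called higher and 0.288% lower. Leaving out any 1 of the 4 iLC and Leydig arrays ended both calls, as did adding 1 in place of 16 before log2 or aligning the low ends of the arrays. Between iLC and Leydig cells, 1 member was called higher, Adh7, and 8 lower, beside 5.74% of all genes higher and 5.69% lower. Without the second Leydig array, 4 of these 9 calls were kept, those of Adh7, Aldh1a1, Aldh1a2 and Aldh3a2; without the first Leydig array the call of Aldh2 was lost, and without either iLC array those of Aldh2 and Aldh3a1. Aligning the low ends of the arrays ended the call of Aldh3a1 as well. Between Leydig cells and MEF, 8 members were called higher and 0 lower, beside 3.39% of all genes higher and 3.99% lower, and 3 of the 8 were kept without the second Leydig array, Adh1, Aldh1a1 and Aldh1a7; without the first, 7 were kept and Aldh2 was lost. The median difference over the members was 0.93 between iLC and MEF, -2.83 between iLC and Leydig cells and 3.65 between Leydig cells and MEF, beside -0.11, -0.03 and -0.10 over all genes. The comparisons share arrays, so their counts are not independent of each other.

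The second Leydig array carried more of some members and less of others. Its difference from the first was 2.11 for Aldh3a1, and 1.87% of all genes differed by more between these arrays. The difference was 1.53 for Aldh1a2 (4.71% of genes differed by more), 1.35 for Aldh3a2 (6.54%) and -1.07 for Adh1 (10.8%). The other 6 members lay between -0.17 for Aldh1a1 and 0.81 for Adh7. Among the 8 germ cell markers, Prm1, Prm2, Tnp1 and Tnp2, which package spermatid DNA, differed by 4.50, 5.31, 4.19 and 4.42 in the same direction. The other 4 differed less, Sycp3 by 1.38, Acrv1 by 0.22, Ddx4 by -0.02 and Dazl by -0.40. The Leydig markers Star, Cyp17a1 and Hsd17b3 were also higher on the second array, by 3.83, 2.28 and 1.70. Hsd3b1, Nr5a1 and Cyp11a1 differed by -1.19, -0.60 and -0.17.

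**Figure D3:**
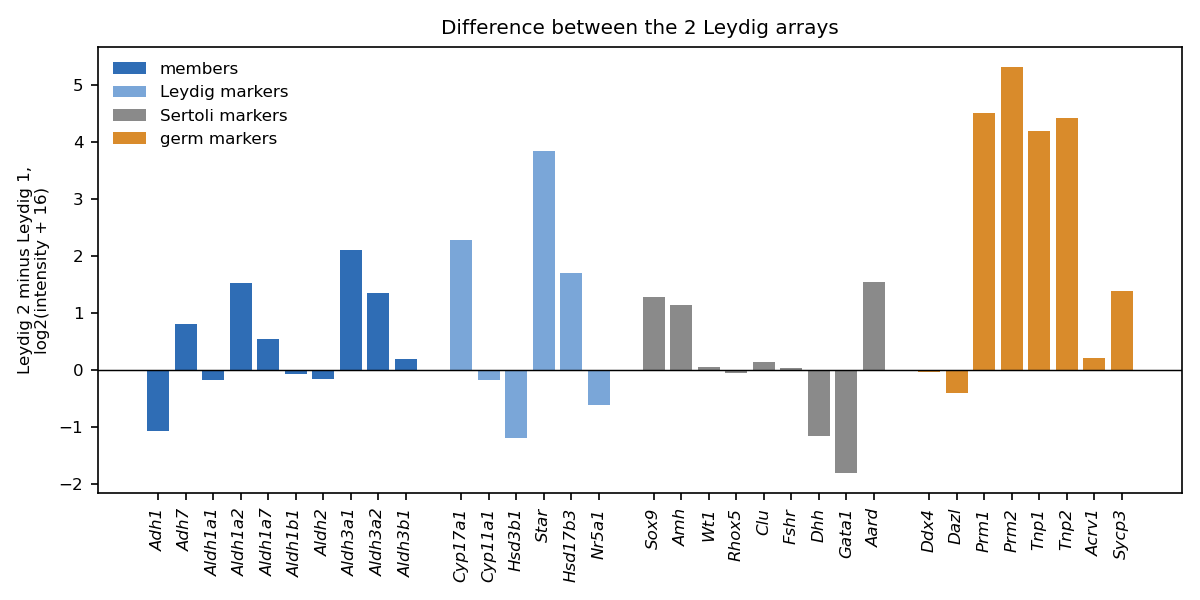
Difference between the 2 Leydig arrays (second minus first, log2(intensity + 16)) for the 10 members and for Leydig, Sertoli and germ cell markers, 1 bar per gene. Aldh3a1 (2.11), Aldh1a2 (1.53) and Aldh3a2 (1.35) lie above 1, and the spermatid markers Prm1, Prm2, Tnp1 and Tnp2 lie above 4.

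Sums of Sertoli and endothelial cell markers were also higher on the Leydig arrays, though not all of their genes were. The 9 Sertoli cell markers summed to 61384 and 95136 on the iLC arrays, 393934 and 525008 on the Leydig arrays and 31672 on the MEF array, with 6 of 9 above MEF on both Leydig arrays. Clu made up most of the sum, with 332720 and 369002 on the Leydig arrays and 23088 on the MEF array, and Aard had 50609 and 147767 on the Leydig arrays and 1314 on the MEF array. Wt1, Fshr, Dhh and Gata1 also read above MEF on both Leydig arrays, whereas Sox9, Amh and Rhox5 read below it on both. Both Leydig arrays lay above both iLC arrays for 4 of the 9. Fshr was higher on the iLC arrays (2572 and 2384) than on the Leydig arrays (1852 and 1893). So was Dhh, with 3082 and 2064 on the iLC arrays, 1501 and 662 on the Leydig arrays and 608 on the MEF array. The 5 endothelial markers summed to 6315 and 6945 on the iLC arrays, 14599 and 10959 on the Leydig arrays and 5216 on the MEF array, with 2 of 5 above MEF on both Leydig arrays; Cdh5 alone had 10224 and 6400 on the Leydig arrays and 771 on the MEF array. Cdh5 made up most of both Leydig sums. Of the other endothelial markers, Pecam1 lay above its MEF value in both Leydig samples. Kdr lay below it in both, at 1709 and 1591 against 2087. Tek fell below MEF on the second Leydig array only, and Tie1 on the first only. None of the markers named here was listed at 0 on a Leydig array. The part of germ, Sertoli and endothelial RNA in the Leydig levels of the members was not tested.

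On the other side, the 7 fibroblast markers summed to 516516 and 424387 on the iLC arrays, 292467 and 118995 on the Leydig arrays and 816098 on the MEF array. Of the 7, 1 read above MEF on both Leydig arrays, Pdgfra, which made up most of both Leydig sums. Pdgfra had 28814 and 20535 on the iLC arrays, 180686 and 92654 on the Leydig arrays and 15980 on the MEF array. Col3a1 lay above MEF on the first Leydig array only. Fn1 had 1039 and 673 on the Leydig arrays and 218059 on the MEF array. The 5 smooth muscle markers summed to 536077 and 478245 on the iLC arrays, 33772 and 49212 on the Leydig arrays and 584564 on the MEF array. The 6 macrophage markers summed to 22217 and 46242 on the iLC arrays, 14291 and 16699 on the Leydig arrays and 59451 on the MEF array. The part of such cells in the differences of Adh1 and Adh7 between iLC and MEF was not tested.

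The 3 genes with the most similar profile are given for most members, which is more of them than the plan set. Likeness was the root mean square difference of log2 values over the 5 arrays, after subtracting each gene's mean of the 3 group means. Nearest to Adh1 were Gucy1a1 (0.491), Atp5b (0.591) and N4bp1 (0.663). Nearest to Adh7 were Defb45 (0.583), Ccl17 (0.595) and Gal (0.653). Nearest to Aldh3a1 were Spa17 (0.187) and Tsga8 (0.242), named for sperm and testis, and Ccdc54 (0.243). Aldh3a2 was nearest to Gpd1 (0.156), to the member Aldh1a2 (0.157) and to Meig1 (0.185), a gene of spermiogenesis. Nearest to Aldh1a2 were Aldh3a2 (0.157), Ifit3b (0.185) and Gpd1 (0.201). Nearest to Aldh1a1 were Htra3 (0.223), Rtn4rl1 (0.273) and Lbp (0.275). For Aldh1a7 they were Apoc1 (0.320), Mgarp (0.322) and Cd40 (0.337). For Aldh2 they were Gstt2 (0.113), Slc6a9 (0.1175) and Nudt10 (0.118). Aldh1b1 and Aldh3b1 were among each other's nearest 3. Each likeness rests on 5 arrays and 3 groups and is a description.

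The rest of the alcohol, aldehyde and retinoid pathway was taken as 11 whole lists of genes, 95 of them measured outside the members. Between iLC and MEF, 1 of 95 rose and 0 fell (0.283% of all genes were called higher and 0.288% lower); between iLC and Leydig cells 7 rose and 6 fell (5.74% and 5.69%); between Leydig cells and MEF 12 rose and 4 fell (3.39% and 3.99%). Their median differences were 0.44, 0.04 and 0.29, beside -0.11, -0.03 and -0.10 over all genes. Leaving out the second Leydig array kept 3 of the 13 calls between iLC and Leydig cells, those of Crabp2, Rarb and Aox1, and 2 of the 16 between Leydig cells and MEF, those of Aox1 and Gsta3. Without the first Leydig array 5 of the 13 and 3 of the 16 were kept, and without either iLC array 6 of the 13 and 13 of the 16. The single call between iLC and MEF was lost without any 1 of these 4 arrays. Adding 1 in place of 16 before log2 ended the calls of Ephx1, Nqo1 and Rdh12 between iLC and Leydig cells and of Aldh9a1, Ephx1, Rarres2 and Rdh5 between Leydig cells and MEF, and aligning the low ends ended these except those of Rdh12 and Rdh5.

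Of the other alcohol dehydrogenases, 0 of 4 measured genes passed the test in any comparison. Adh4 read 2547 and 608 on the iLC arrays, 186 and 440 on the Leydig arrays and 355 on the MEF array, with a difference of 2.06 ± 0.73 between iLC and Leydig cells (limma adjusted p = 0.136). Adh5, the glutathione-dependent formaldehyde dehydrogenase, read 709 and 1104 on the iLC arrays, 930 and 1233 on the Leydig arrays and 650 on the MEF array. 
Of the other aldehyde dehydrogenases, 0 of 11 passed between iLC and MEF, 1 fell between iLC and Leydig cells and 2 rose between Leydig cells and MEF. Aldh9a1, whose enzyme makes gamma-aminobutyric acid and a precursor of carnitine, read 12848 and 12301 on the iLC arrays, 44424 and 70925 on the Leydig arrays and 12229 on the MEF array. It was lower by -2.16 ± 0.35 between iLC and Leydig cells (limma adjusted p = 0.0144) and higher by 2.20 ± 0.43 between Leydig cells and MEF (limma adjusted p = 0.0345). The second call was lost in 7 of the 12 alternatives (adjusted p up to 0.122), including each that left out 1 array and the mean of a gene's probes. Aldh6a1, of valine breakdown, read 7462 and 6645 on the iLC arrays, 11456 and 8136 on the Leydig arrays and 1440 on the MEF array, a difference of 2.73 ± 0.41 between Leydig cells and MEF (limma adjusted p = 0.0151). Aldh1a3, the remaining retinal dehydrogenase, read 1317 and 1487 on the iLC arrays, 2685 and 1019 on the Leydig arrays and 401 on the MEF array, and its difference of 1.76 ± 0.61 between iLC and MEF did not pass (limma adjusted p = 0.249).

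The short-chain enzymes that interconvert retinol and retinal gave 0 of 18 calls between iLC and MEF. Between iLC and Leydig cells 2 rose and 0 fell: Rdh10, the main embryonic retinol dehydrogenase, and Rdh12. Rdh10 read 24521 and 15649 on the iLC arrays, 2578 and 4220 on the Leydig arrays and 4889 on the MEF array, a difference of 2.56 ± 0.40 between iLC and Leydig cells (limma adjusted p = 0.0125). Both iLC arrays lay above all others for this gene. Rdh12 differed by 1.31 ± 0.30 (limma adjusted p = 0.0414). Between Leydig cells and MEF 2 rose and 0 fell: Dhrs7 by 2.74 ± 0.44 (limma adjusted p = 0.0192) and Rdh5 by 1.84 ± 0.38 (limma adjusted p = 0.0418).

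Of 13 genes of retinoid uptake, binding and storage, 3 rose and 0 fell between iLC and Leydig cells, 0 rose and 3 fell between Leydig cells and MEF, and 0 passed between iLC and MEF. Crabp2, which carries retinoic acid to its nuclear receptors, read 281173 and 153442 on the iLC arrays, 2137 and 1796 on the Leydig arrays and 30114 on the MEF array. It was high on the iLC arrays and lowest on the Leydig arrays, with differences of 6.72 ± 0.39 between iLC and Leydig cells (limma adjusted p = 0.00101) and -3.93 ± 0.48 between Leydig cells and MEF (limma adjusted p = 0.0087). The difference of 2.79 ± 0.48 between iLC and MEF did not pass (limma adjusted p = 0.0747). Crabp1, the other cellular retinoic acid binding protein, read 38245 and 67889 on the iLC arrays, 13713 and 12727 on the Leydig arrays and 129448 on the MEF array. It rose by 1.95 ± 0.38 between iLC and Leydig cells (limma adjusted p = 0.0253). Stra6, the retinol uptake receptor, rose by 2.44 ± 0.36 in that comparison (limma adjusted p = 0.0102), and Fabp5, which can also carry retinoic acid, fell by 3.17 on the log2 scale (SE 0.46) between Leydig cells and MEF (limma adjusted p = 0.0143).

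Among the 6 RAR and RXR receptor genes, 0 passed between iLC and MEF. Rarb, a receptor that is itself induced by retinoic acid, read 1604 and 3307 on the iLC arrays, 98.5 and 72.3 on the Leydig arrays and 1641 on the MEF array. It rose by 4.53 ± 0.43 between iLC and Leydig cells (limma adjusted p = 0.00229) and fell by 4.04 on the log2 scale (SE 0.53) between Leydig cells and MEF (limma adjusted p = 0.0105). Rara went the other way, with 4030 and 2568 on the iLC arrays, 10873 and 13288 on the Leydig arrays and 6770 on the MEF array, a difference of -1.90 ± 0.36 between iLC and Leydig cells (limma adjusted p = 0.023). Of the 3 Cyp26 genes, whose enzymes degrade retinoic acid, 0 passed in any comparison. Cyp26b1 read 20627 and 17923 on the iLC arrays, 11275 and 13301 on the Leydig arrays and 6145 on the MEF array, and its difference of 1.64 ± 0.38 between iLC and MEF had a limma adjusted p of 0.127.

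**Figure D4:**
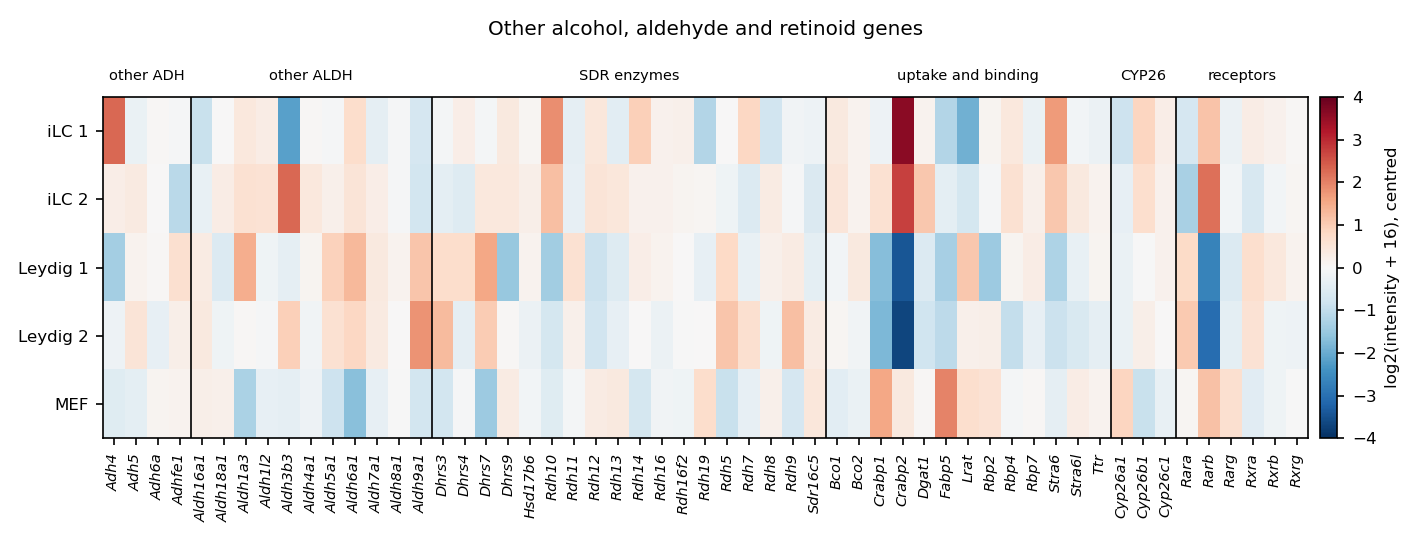
Heat map of 55 other alcohol, aldehyde and retinoid genes (columns, grouped by list) on the iLC, Leydig and MEF arrays (rows). Colour is log2(intensity + 16) minus the gene's mean of the 3 group means, cut at 4 in either direction; Crabp2 and Rarb are red in iLC and deep blue in Leydig cells, and Aldh9a1 is red in Leydig cells.

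The 15 measured retinoic acid target genes, some of which also stand in the lists above, gave 0 calls between iLC and MEF, 3 higher and 0 lower between iLC and Leydig cells (Crabp2, Rarb and Stra6), and 1 higher and 2 lower between Leydig cells and MEF. The one that rose in Leydig cells was Rarres2, which encodes chemerin, by 3.06 ± 0.58 (limma adjusted p = 0.0299), or 2.42 and 3.69 without the first or the second Leydig array. The median difference of the list was 0.49 between iLC and MEF, 0.51 between iLC and Leydig cells and -0.42 between Leydig cells and MEF.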

How the data were processed

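Total RNA of 5 mouse samples was amplified and labelled with Cy5, per the labels' protocols, and hybridised to 1 array each. The authors deposited linear probe intensities; how they corrected the background and normalized, and with which software, was not stated in the labels. Detection calls were not used, so how far a probe lay above background is unknown. Of 26423 probes, 21876 had 1 gene symbol in the platform annotation, 0 had several and 4547 had none; 21825 matched the reference gene table (GRCm38.p6, used for names and neighbours). The brightest probe was kept for the 2424 genes with several, and 0 columns belonged to no sample.

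Values below 0 (435 and 23 on the iLC arrays, 0 and 46 on the Leydig arrays, 0 on the MEF array) were set to 0, a departure from the planned plain log2(intensity + 16), which could not take the lowest of them. limma 3.58.1 in R 4.3.3 fitted 1 mean per group over all 5 arrays, two-sided, with Benjamini-Hochberg adjustment over 19084 genes and a threshold of 0.05; the fit, tested on simulated data, had 2 residual and 4.19 prior degrees of freedom. The MEF group borrowed its spread from the pairs, whose root mean square standard deviations were 0.459 for iLC and 0.549 for Leydig cells. The added 16 shrinks differences of dim genes, and the few arrays limit the precision.

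The members and lists were chosen with earlier results of these data known. Named genes were all members and, of each other list, every called gene up to the 6 largest differences in each comparison, or the 2 largest where none was called, of which the text gives a selection; others, such as the cell type markers and Gclc, were named after their values were seen. For nearest profiles, predicted genes, clones and pseudogenes were left out. Upstream windows were aligned and searched for motifs on both strands. The iLC and Leydig arrays share replicate numbers, which are names only: over genes, the deviations of same-numbered arrays correlated at 0.0552 in 2 pairs.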

Additional observations from a re-analysis of the deposited data

How the results depend on the processing

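The 30 differences of the 10 members kept their sign under all 12 alternatives; the calls depended on the number of arrays. Leaving out 1 iLC or Leydig array lowers the residual degrees of freedom to 1 and lends the lone array the spread of the others. It left 0 genes called between iLC and MEF, against 109 with all arrays, while 2137 to 2881 passed an unadjusted p under 0.05 (3006 with all arrays); 0 members and 0 other pathway genes were then called. Leaving out 1 array gave 704 to 1267 genes between iLC and Leydig cells (2181), 4 to 8 members (9) and 3 to 6 other pathway genes (13). Between Leydig cells and MEF it gave 149 to 963 genes (1408), 3 to 8 members (8) and 2 to 13 other pathway genes (16), and the lowest counts of these 2 comparisons came without the second Leydig array.

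The scale mattered in all 3 comparisons. Of the 13 and 16 other pathway genes called between iLC and Leydig cells and between Leydig cells and MEF, 10 and 12 were kept with 1 added before log2, 11 and 13 with aligned low ends, and 13 and 15 after averaging all probes of each gene; aligned low ends kept 8 of the 9 members called between iLC and Leydig cells.

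Between iLC and MEF the counts moved more. The genes called were 287 with 64 added before log2, 9 with 1 added, 363 after quantile normalization, 415 after subtracting array medians (157 higher and 258 lower, against 54 and 55) and 6 after aligning the low ends (6 higher and 0 lower); the cause was not tested. The median of all genes moved from -0.11 to 0.05 with quantile normalization and 0.12 with aligned low ends. Members called were 0 with 1 added and 0 with aligned low ends, and other pathway genes called were 5, 0, 5, 6 and 0 under these 5 settings and 2 without dim genes. Of the list medians, those of the other alcohol dehydrogenases, the short-chain enzymes, the uptake genes, the receptors and the aryl hydrocarbon receptor targets changed sign under some setting in at least 1 comparison.

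With the replicate block, which rests on shared numbers alone, 1362 genes were called between iLC and MEF, 3443 between iLC and Leydig cells and 2421 between Leydig cells and MEF; other pathway genes called were 17 and 21 in the first and second of these comparisons, and 0 calls of members were lost.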

Other observations

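Genes of the oxidative stress and xenobiotic response, to which several alcohol and aldehyde dehydrogenases also belong in other tissues, mostly read higher on the iLC arrays, and also on the Leydig arrays, than on the MEF array, though few passed the test. Of 12 measured NRF2 target genes, 1 rose and 0 fell between iLC and MEF, where 0.283% of all genes were called higher. All 12 differences were above 0, with a median of 1.96 beside -0.11 over all genes. This median stayed between 1.82 and 2.06 over the 12 alternative settings. Between Leydig cells and MEF, 11 of the 12 were above 0, with a median of 0.97 beside -0.10 over all genes. The list was chosen with earlier results of these data known, and all 12 differences share the single MEF array. The share of all genes above 0 was not counted, so nothing is read from these signs. The one that rose was Gsta3, a glutathione transferase that also isomerises steroids, with 19614 and 12023 on the iLC arrays, 151867 and 209494 on the Leydig arrays and 926 on the MEF array. Gsta3 differed by 4.03 ± 0.47 between iLC and MEF (limma adjusted p = 0.0352, up to 0.147 over the alternatives), by -3.54 ± 0.38 between iLC and Leydig cells (limma adjusted p = 0.00356) and by 7.57 ± 0.47 between Leydig cells and MEF (limma adjusted p = 0.00172). The 3 groups did not overlap. Nqo1, a quinone reductase, had 15379 and 24402 on the iLC arrays, 2313 and 5800 on the Leydig arrays and 2358 on the MEF array. It rose by 2.40 ± 0.51 between iLC and Leydig cells (limma adjusted p = 0.0345), or by 1.74 and 3.06 without the first or the second Leydig array, while its difference of 3.03 ± 0.63 between iLC and MEF did not pass (limma adjusted p = 0.102). Gclc, which starts glutathione synthesis, had a difference of 2.76 between iLC and MEF (limma adjusted p = 0.0948). In the list, 1 gene rose and 2 fell between iLC and Leydig cells, Ephx1 being lower by -1.88 ± 0.44 (limma adjusted p = 0.0447), and 3 rose and 0 fell between Leydig cells and MEF, among them Gsta4 by 3.21 ± 0.53 (limma adjusted p = 0.0206) and Ephx1 by 2.72 ± 0.54 (limma adjusted p = 0.0346). Of the 6 aryl hydrocarbon receptor targets, 1 passed in any comparison, Nqo1 between iLC and Leydig cells; Tiparp had a difference of 1.94 ± 0.43 between Leydig cells and MEF (limma adjusted p = 0.0514).

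Other enzymes that handle aldehydes included several that rose in Leydig cells relative to MEF. Of 8 listed genes of other enzymes that handle aldehydes, most of them reductases, 0 passed between iLC and MEF. In the same list 0 rose and 1 fell between iLC and Leydig cells, and 3 rose and 0 fell between Leydig cells and MEF. Akr1a1, aldehyde reductase, read 775 and 775 on the iLC arrays, 2000.2 and 2227 on the Leydig arrays and 311 on the MEF array, with differences of -1.43 ± 0.30 between iLC and Leydig cells (limma adjusted p = 0.0327) and 2.70 ± 0.37 between Leydig cells and MEF (limma adjusted p = 0.0116). Cbr3, a carbonyl reductase, differed by 2.56 ± 0.41 between Leydig cells and MEF (limma adjusted p = 0.018). The third was Gsta4, a glutathione transferase and not a reductase, which is also counted among the NRF2 targets. Of 8 genes listed around fatty aldehydes and their sources, not all of which act on an aldehyde, 0 passed between iLC and MEF. Between iLC and Leydig cells 0 rose and 1 fell, and between Leydig cells and MEF 2 rose and 0 fell. Aox1, an aldehyde oxidase that can also oxidise retinal, read 2042 and 1972 on the iLC arrays, 21367 and 19540 on the Leydig arrays and 1050 on the MEF array. It differed by -3.34 ± 0.30 between iLC and Leydig cells (limma adjusted p = 0.00205) and by 4.26 ± 0.37 between Leydig cells and MEF (limma adjusted p = 0.00384), and both calls were kept under all 12 alternatives. Phyh, of peroxisomal phytanic acid breakdown, read 25985 and 27305 on the iLC arrays, 27372 and 25354 on the Leydig arrays and 4368 on the MEF array; it differed by 2.59 ± 0.37 between Leydig cells and MEF (limma adjusted p = 0.0131), and its difference of 2.60 ± 0.37 between iLC and MEF did not pass (limma adjusted p = 0.0524). The iLC and Leydig ranges of Phyh overlapped. Of these called genes, those named here had no change of sign under the alternatives.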
